A study of Caenorhabditis elegans with 2 samples.

Results

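The genes described here are 67 of the 19973 protein-coding genes annotated in WBcel235, picked by symbol with earlier results of these data known. They are 44 glutathione transferase genes (gst- plus a number), 3 omega-class glutathione transferase genes (gsto-1, gsto-2 and gsto-3) and 20 stress response genes. The stress response genes include 7 grouped here under the osmotic response (gpdh-1, gpdh-2, hmit-1.1, osm-8, osm-11, osr-1 and ttr-33). The place of ttr-33 there was a choice made here, and its values count in that group's results. The others are skn-1 with wdr-23 and gcs-1, the superoxide dismutase genes sod-1 to sod-5 and the catalase genes ctl-1 to ctl-3. Last are the thioredoxin system genes trx-2 and trxr-1. The question put to the data was where the GATA transcription factor ELT-3 had regions of enrichment at these genes.

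Whole Caenorhabditis elegans at the L2 larval stage, a pool of males and females, were used for chromatin immunoprecipitation with sequencing (ChIP-seq). The strain, OP75, carries unc-119(ed3) III and the transgene wgIs75 and makes ELT-3 with GFP-FLAG at its C-terminus. There was 1 group with 2 biological replicates, and both carried these alleles. The labels name neither the promoter of the transgene nor the animals' age, and no list from a control sample was analysed here. In whole larvae, binding in few cells and weaker binding in many cells cannot be told apart.

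ELT-3 is made mainly in the hypodermis, the epithelium under the cuticle, and GATA factors bind DNA through zinc fingers that read the core GATA. Glutathione transferases join the peptide glutathione to reactive compounds so that these can be removed. Many of them are switched on by the transcription factor SKN-1, which the protein WDR-23 holds in check. Under high salt, worms make glycerol with the enzyme GPDH-1, and superoxide dismutases and catalases remove superoxide and hydrogen peroxide.

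The authors deposited 30000 regions for each replicate, and 30000 more called on the pooled replicates, with the weakest regions included as background. Each region carries the authors' signal value, a score against a control alignment whose scale is not given. It was used to rank regions within a list, and values set side by side between lists are descriptions only. A region was counted for a gene when its summit lay in the gene or up to 2000 bp upstream, called the window below. The pooled signal value was 28.4 at rank 1000, 21.7 at rank 5000 and 12.6 at the end of the list. The replicates had little in common at the top, since 67 summits of replicate 1's 1000 highest regions were matched, to within 150 bp, by a summit from replicate 2's 1000 highest.

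The sequences around the summits of high regions and of well studied genes are shown so that the bases under the values given below can be read, with and without the GATA site TGATAA. All are from the WBcel235 (ce11) reference and are written 5′ to 3′ on the strand of the gene, with the summit in the middle. Capitals mark TGATAA, which reads TTATCA where it lies on the other strand. The stretches are at chrV:3467905-3468105 (minus strand) for gst-33, chrII:15166073-15166173 (minus) for gst-26 and gst-27, chrV:18519508-18519708 (plus) for hmit-1.1, chrIII:8554803-8554863 (plus) for gsto-2, chrII:4890294-4890494 (plus) for gst-9, chrIV:10142309-10142409 (plus) for gst-4, chrII:9037780-9037980 (minus) for gcs-1, chrX:17421667-17421867 (minus) for osm-11 and chrII:14300394-14300594 (minus) for ctl-2. The osm-11 and ctl-2 stretches were chosen for their TGATAA after the values were seen, and the highest region, that of gst-43, is not among them although it has the site. The set therefore says nothing of how often the site occurs.
gst-33: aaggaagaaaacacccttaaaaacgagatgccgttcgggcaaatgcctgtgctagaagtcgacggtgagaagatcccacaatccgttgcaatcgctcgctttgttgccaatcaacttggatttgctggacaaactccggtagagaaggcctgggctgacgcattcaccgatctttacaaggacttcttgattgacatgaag
gst-26 and gst-27: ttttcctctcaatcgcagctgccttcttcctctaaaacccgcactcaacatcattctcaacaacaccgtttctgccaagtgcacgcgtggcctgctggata
hmit-1.1: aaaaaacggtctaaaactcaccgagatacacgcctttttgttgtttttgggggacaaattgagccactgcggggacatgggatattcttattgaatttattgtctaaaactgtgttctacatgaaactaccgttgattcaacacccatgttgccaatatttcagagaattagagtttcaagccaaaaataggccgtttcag
gsto-2: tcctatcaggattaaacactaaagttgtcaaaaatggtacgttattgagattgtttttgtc
gst-9: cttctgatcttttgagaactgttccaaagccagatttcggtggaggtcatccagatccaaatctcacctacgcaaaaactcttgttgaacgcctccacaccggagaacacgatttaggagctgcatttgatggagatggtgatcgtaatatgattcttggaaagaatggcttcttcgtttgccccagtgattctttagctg
gst-4: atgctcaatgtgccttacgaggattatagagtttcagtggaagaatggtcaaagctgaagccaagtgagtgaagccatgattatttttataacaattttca
gcs-1: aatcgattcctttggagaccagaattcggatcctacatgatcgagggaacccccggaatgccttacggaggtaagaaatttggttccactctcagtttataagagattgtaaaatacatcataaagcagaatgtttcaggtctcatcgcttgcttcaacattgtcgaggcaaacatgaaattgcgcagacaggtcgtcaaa
osm-11: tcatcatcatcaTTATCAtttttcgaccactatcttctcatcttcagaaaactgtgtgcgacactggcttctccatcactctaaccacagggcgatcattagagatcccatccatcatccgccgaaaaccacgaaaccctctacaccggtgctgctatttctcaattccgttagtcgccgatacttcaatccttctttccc
ctl-2: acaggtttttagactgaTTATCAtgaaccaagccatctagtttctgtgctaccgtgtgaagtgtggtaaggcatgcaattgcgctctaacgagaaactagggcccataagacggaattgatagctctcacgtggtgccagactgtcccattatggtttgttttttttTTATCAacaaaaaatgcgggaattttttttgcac

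Most members had at least a weak region. In the pooled list 56 of 67 had 1 or more regions in the window (83.6%, 95% Wilson interval 72.9 to 90.6%), beside 74.2% of all protein-coding genes. Among the pooled list's 1000 highest regions, 5 members had a region (7.46%, interval 3.23 to 16.3%), namely gst-43, gst-33, gst-26, gst-27 and hmit-1.1, beside 5.0% of all genes. As gst-26 and gst-27 share 1 region, these were 4 regions. The authors' shorter list, filtered by them for reproducibility with the irreproducible discovery rate (IDR), held 0 regions at a member, beside 0.12% of all genes. The lowest q-value of any member region was 0.294. Over the members with a region, the median of the highest pooled signal value was 19.5 (range 13.1 to 39.3, n = 56). Over all genes with a region it was 18.6 (n = 14812). In replicate 1 the members' median was 11.02 against 11.3 for all genes, and in replicate 2 it was 11.03 against 10.9. The windows of the members were shorter, with a median of 3380 bp against 4027 bp, and held 0.384 regions per kb against 0.316. Intervals cover the counting of genes or regions alone, and the read depth of the libraries is unknown.

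**Figure D1:**
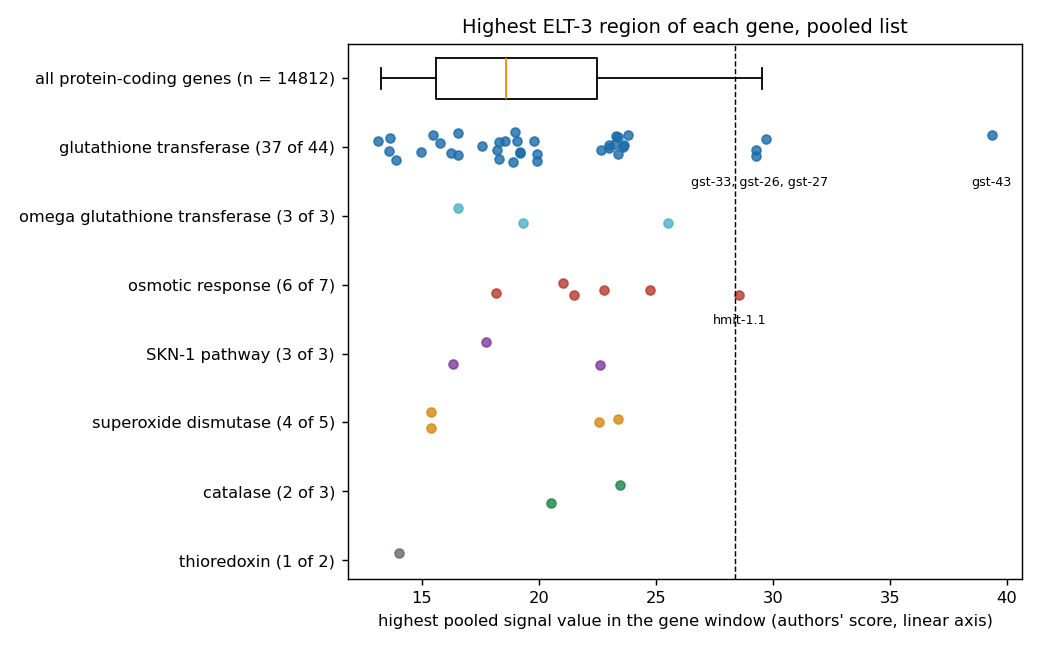
Highest pooled signal value in each member's window (linear axis, the authors' score), by gene group; each point is 1 gene, spread vertically for legibility, and the counts give members with a region. The box shows all protein-coding genes (median and quartiles, whiskers at the 5th and 95th percentile) and the dashed line the signal value at rank 1000. Of the 56 points, 5 lie past the line and gst-43 stands highest at 39.3.

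Further down the pooled list the members' share was above that of all genes, and in the replicates' lists it was close to it. The pooled list's 5000 highest regions reached 22 members (32.8%, interval 22.8 to 44.7%), beside 21.8% of all genes. Several of these members share a region, such as gst-26 with gst-27 and gst-34 with gst-35. Counted by distinct region, 22 of the members' 91 were among the 5000 highest (24.2%, interval 16.5 to 33.9%), beside 17.0% of the regions in all gene windows, which lies inside the interval. The difference was not tested. Replicate 1's 5000 highest reached 14 members (20.9%, interval 12.9 to 32.1%), beside 22.4%, and replicate 2's reached 15 (22.4%, interval 14.1 to 33.7%), beside 21.5%. For the 1000 highest, replicate 1 gave 3 members (gst-43, gst-26 and gst-27), beside 5.18% of all genes, and replicate 2 gave 2 (gst-43 and gst-16), beside 4.97%. By percentile among the other genes with a region, 22 of 56 members stood at or above the 75th percentile in the pooled list, 11 of 52 in replicate 1 and 15 of 55 in replicate 2.

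**Figure D2:**
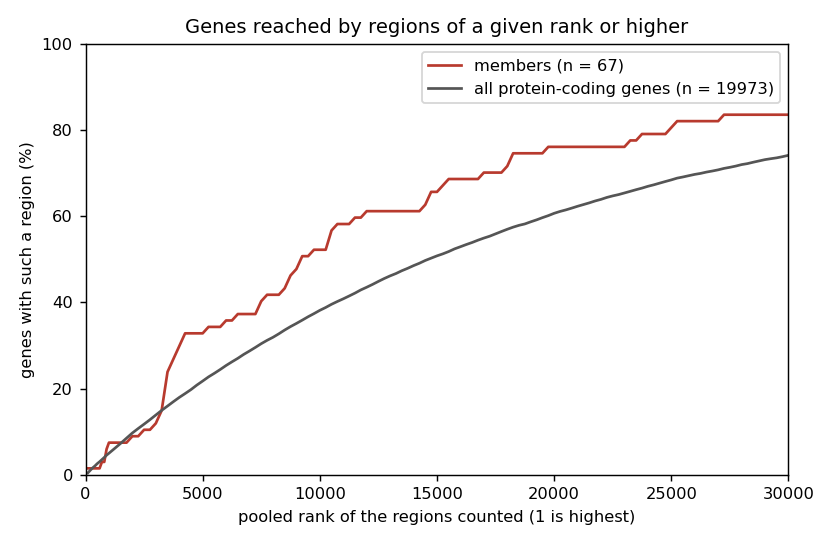
Share of genes (%) that have a region of a given pooled rank or higher in their window, for the 67 members and for all 19973 protein-coding genes. The curves run together over the highest regions, and at rank 5000 they stand at 32.8% and 21.8%.

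Among the glutathione transferases, gst-43 had the highest region of any member. It lay at 2899649 to 2899998 on chromosome I (ce11), 1501 bp upstream of the annotated start of gst-43 and inside a coding exon of its neighbour copa-1, whose own start was nearer, at 1036 bp. Its pooled signal value was 39.3 (rank 77), and the values at that place were 19.6 in replicate 1 (rank 440) and 18.9 in replicate 2 (rank 519). It was the only member region whose place was among the 1000 highest of both replicates, it exceeded 99.6% of other genes with a region, and it had 1 TGATAA. The neighbourhood was crowded: within 250 kb lay 22 of replicate 1's and 23 of replicate 2's 1000 highest regions, where the median region in a gene window had 4 and 4. The part of this crowding in the rank of the region was not tested.

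The region of gst-33 lay in the gene's own coding sequence, at 3467830 to 3468179 on chromosome V, 557 bp downstream of its start. The pooled signal value was 29.7 (rank 696), with 15.4 in replicate 1 (rank 2207) and 15.5 in replicate 2 (rank 1928). Both replicates thus gave similar values there, and no other gene had this region in its window. The sequence shown above for gst-33 holds no TGATAA.

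The genes gst-26 and gst-27 are neighbours on chromosome II and had the same highest region, at 15165948 to 15166297, which was 392 bp upstream of gst-27 and 1570 bp upstream of gst-26. Its pooled signal value was 29.3 (rank 807). Replicate 1 had a value of 25.3 at this place and ranked it 44, while replicate 2 had no summit within 150 bp. The highest regions of replicate 2 in these windows were 9.23 at gst-26 (rank 16425) and 9.91 at gst-27 (rank 13334). A high region at this place was thus found in replicate 1 and not in replicate 2. The part of each replicate in the pooled value was not tested.

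The reverse held at gst-16, where an intronic region had a pooled signal value of 23.6 (rank 3163), 18.6 in replicate 2 (rank 576) and no summit within 150 bp in replicate 1. Likewise gst-42, whose product is a zeta-class enzyme of tyrosine breakdown, had a region 6 bp downstream of its start with a pooled value of 23.6, a replicate 2 value of 15.5 (rank 1893) and no matching summit in replicate 1. At gst-25, a region 52 bp upstream of the start had a pooled value of 23.3, with 8.66 in replicate 1 and 16.7 in replicate 2. The regions at gst-42 and gst-25 each lay within 100 bp of TGATAA, with 2 sites and 1 site. Those of gst-9 (23.8) and gst-5 (23.3) ranked higher in replicate 1 than in replicate 2 and had no TGATAA. Replicate 1 had 14.3 (rank 3310) and 13.3 (rank 4690), and replicate 2 had 7.84 (rank 24330) and 8.29 (rank 21467). The gst-9 region lay in a coding exon of the neighbour pgm-1. A weaker gst-9 region, 81 bp upstream of its own start, had 17.0 in the pooled list and 15.6 in replicate 2 (rank 1846), with no matching summit in replicate 1.

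The remaining glutathione transferase genes with a region had highest pooled values between 13.1 at gst-28 and 23.4 at gst-34 and gst-35. The region of gst-34 and gst-35, in an intron of gst-35, ranked 1014 in replicate 2 with a value of 17.2 and had no match in replicate 1. The region that gst-12 and gst-14 share, of 22.998, instead had similar and ordinary values of 9.33 in replicate 1 and 9.36 in replicate 2.

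The gene gst-4, whose promoter drives a widely used reporter of SKN-1 activity, stood near the middle of the genes with a region. Its single pooled region, at 10142184 to 10142533 on chromosome IV, had its summit in a coding exon 134 bp downstream of the start, a signal value of 18.3 and rank 10277, above 47.6% of other genes with a region. Replicate 1 had 10.9 there (rank 10699), and the highest replicate 2 region in the window was 8.05 (rank 22953). The window of gst-2 holds the same region, and the nearest protein-coding start was that of dhs-12, at 96 bp. The gene gst-10, whose enzyme conjugates the lipid peroxidation product 4-hydroxynonenal, had 0 pooled regions, 0 in replicate 1 and 1 in replicate 2 with a value of 8.12 (rank 22509).

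Tandem runs of glutathione transferase genes shared many regions. With gaps under 20 kb, 4 runs of 3 or more genes were found, which held 25 of the 47 glutathione transferase and omega-class genes. On chromosome II they were gst-6 to gst-9 (4 genes, 4 regions), the run from gst-20 to gst-18 (9 genes, 12 regions) and the run from gst-26 to gst-35 (9 genes, 8 regions), and on chromosome IV the run of gst-3, gst-2 and gst-4 (3 genes, 2 regions). The highest pooled signal values in the runs were 23.8, 23.6, 29.3 and 18.3. Together the runs had 0.433 regions per kb, and the other 22 glutathione transferase and omega-class genes had 0.343. No region of a run had TGATAA within 100 bp (0 of 26, interval 0 to 12.9%). At the other 22 genes 4 of the 26 regions did (15.4%, interval 6.15 to 33.5%), and these intervals overlap. Over the regions in all gene windows the share was 16.3%, which lies above the runs' interval and inside that of the other genes. The difference was not tested. Neighbours in such runs can be alike in sequence, and how the authors treated reads that match several places is not given in the sources used here, so values in the runs are uncertain.

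Of the 3 omega-class genes, gsto-2 had the highest region. The region of gsto-2 lay 61 bp downstream of its start, in the coding sequence of the first exon, with a pooled signal value of 25.5 (rank 1987). Its replicate values were both ordinary, 9.52 in replicate 1 (rank 16556) and 9.74 in replicate 2 (rank 14039), close to the list medians of 9.85 and 9.53. The highest pooled values of gsto-1 and gsto-3 were 19.3 and 16.6, and the gsto-3 region had TGATAA.

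Of the 7 genes grouped as osmotic response, ttr-33 included, 6 had a pooled region, beside 74.2% of all genes. The median of their highest values was 22.1 (range 18.2 to 28.6), against 18.6 for all genes. The highest was in hmit-1.1, which encodes a transporter of protons and myo-inositol that is induced by high salt. Its region at 18519433 to 18519782 on chromosome V lay in an intron, 2819 bp downstream of the start, with a pooled value of 28.6 (rank 961), 9.68 in replicate 1 (rank 15777) and 16.6 in replicate 2 (rank 1276). The value was thus high in replicate 2 and at the list's median level in replicate 1.

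At gpdh-1, the glycerol-3-phosphate dehydrogenase gene of glycerol synthesis, a region 431 bp upstream of the start had a pooled value of 24.8 (rank 2393). Replicate 1 had 17.3 there (rank 1051) and replicate 2 had 7.65 (rank 25655), so here replicate 1 was the high sample. Its relative gpdh-2 had an intronic region with a pooled value of 22.8, 15.9 in replicate 1 (rank 1810) and 7.20 in replicate 2 (rank 28881). A further gpdh-2 region, in its 3′ UTR, had 14.1 in replicate 2 (rank 3185) and no match in replicate 1.

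The gene osm-11 encodes a secreted ligand of Notch signalling whose loss turns on osmotic response genes. It had 4 pooled regions, and the highest lay 185 bp upstream of its start, at 17421592 to 17421941 on chromosome X. The pooled signal value was 21.5 (rank 5205), with 15.5 in replicate 1 (rank 2112) and 14.5 in replicate 2 (rank 2777). Both replicates thus had a summit within 150 bp and of similar height there, though not both within 50 bp, and the sequence shown above has the TGATAA site. A second region with TGATAA, 394 bp upstream, had 18.4 in the pooled list, 8.30 in replicate 1 and 12.3 in replicate 2.

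The gene osm-8 encodes a secreted mucin-like protein and acts in the same response. It had 1 pooled region with 2 TGATAA sites, in its coding sequence 231 bp downstream of the start. The summit also lay in an intron of npp-21. The values were 18.2 pooled (rank 10512), 12.9 in replicate 1 (rank 5442) and 12.4 in replicate 2 (rank 5919). The transthyretin-like gene ttr-33 had 2 regions, of 21.03 and 15.8, and its window overlaps those of other genes. The gene osr-1, named for resistance to osmotic stress, had 0 pooled regions, although replicate 1 had a region of 13.2 (rank 4817) and replicate 2 a region of 11.1 (rank 9230) in its window.

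In the SKN-1 pathway all 3 genes had regions, beside 74.2% of all genes, and none had one among the 1000 highest, beside 5.0%. The gene skn-1 had 7, the most of any member, in the longest window of 11346 bp. Its highest, in an intron, was 22.6 in the pooled list (rank 4043), 8.57 in replicate 1 (rank 21691) and 14.97 in replicate 2 (rank 2319). At wdr-23, whose product directs SKN-1 to degradation, an intronic region 197 bp upstream of an annotated internal start had 17.7 in the pooled list and 15.8 in replicate 1 (rank 1842), with no match in replicate 2. It too lay in a crowded neighbourhood, with 18 of each replicate's 1000 highest regions within 250 kb. The gene gcs-1, which encodes the first enzyme of glutathione synthesis, had an intronic region of 16.3 (rank 15121) with no match in either replicate, and a weaker one of 13.1. The highest region of replicate 1 in the gcs-1 window, at another place, was 12.05 (rank 7330).

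Of the superoxide dismutases, sod-1, a cytosolic copper and zinc enzyme, had the highest region at 23.4, with 11.0 in replicate 1 and 14.6 in replicate 2. The secreted enzyme's gene sod-4 had a region of 22.6, and sod-2 and sod-5 had 15.4 each. The gene sod-3, a mitochondrial manganese enzyme often used to read out stress, had 0 pooled regions, and the replicates' highest values in its window were 10.6 (rank 12082) and 9.77 (rank 13898). The peroxisomal catalase gene ctl-2 had a region of 23.5 in an intron with 2 TGATAA sites, at 12.05 in replicate 1 and 8.81 in replicate 2. Its neighbour ctl-3 had 20.5, and ctl-1 had 0 regions in all 3 lists. The thioredoxin reductase gene trxr-1 had a region of 14.0 in the window, and the mitochondrial thioredoxin gene trx-2 had 0 pooled regions.

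The 11 members with 0 pooled regions were gst-3, gst-10, gst-11, gst-21, gst-22, gst-31, gst-41, osr-1, ctl-1, sod-3 and trx-2. Of these, 8 had a region in at least 1 replicate's list, and 3 had none in any list. A missing region means that the place was not among the 30000 deposited and gives no value.

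At members as at all genes, the replicates rarely had the same high region. A region was called replicated when its pooled summit lay within 150 bp of a summit among the 5000 highest of each replicate. This held for 3 of 67 members, gst-43, gst-33 and osm-11 (4.48%, interval 1.53 to 12.4%), beside 2.76% of all genes. All 3 calls were lost when summits had to lie within 50 bp (0 members, beside 1.43% of all genes). With the 10000 highest of each replicate, 4 members had such a region, beside 7.08% of all genes. The members' distinct pooled regions numbered 91, of which 28 had a summit of any rank in both replicates' lists within 150 bp (30.8%, interval 22.2 to 40.9%), beside 24.2% of the regions in all gene windows. Among the 43 members with a region in both lists, the highest summits lay within 150 bp of each other in 9 (20.9%, interval 11.4 to 35.2%), beside 18.1% of all such genes. Spearman's rho between the replicates' highest values across these 43 genes was −0.05, and across all 12102 such genes it was 0.20. Both are descriptions, since the genes share the same libraries and the same control alignment.

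**Figure D3:**
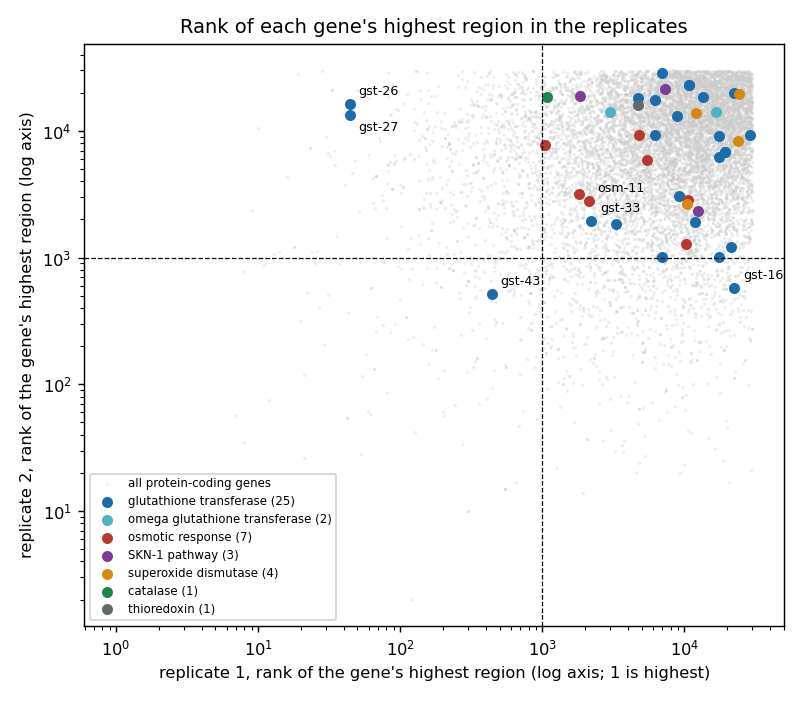
Rank of each gene's highest region in replicate 1 (x) and replicate 2 (y), both on log axes with 1 as the highest; coloured points are the 43 members with a region in both lists, grey points all such protein-coding genes, and dashed lines mark rank 1000. The gene gst-43 is the member inside both lines, while gst-26 and gst-27 pass only that of replicate 1 and gst-16 only that of replicate 2.

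Regions lay both near starts and away from them, and their places were not counted over all gene windows. Because 16 of the 91 regions fell in the windows of 2 or more members, they made 107 pairs of a region and a member. Of these pairs 48 had the summit upstream of the gene, 29 in a coding exon, 25 in an intron, 3 in a 3′ UTR and 2 in a 5′ UTR. Within 1000 bp of the member's nearest start lay 63 pairs. The nearest protein-coding start of any gene was a member's for 70 of the 91 regions, and 30 regions also lay in the window of a gene that is no member. Chromosome II held 32 of the 67 members (47.8%), against 17.3% of all protein-coding genes. It held 38 of the 91 regions (41.8%), against 16.3% of the regions in all gene windows.

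**Figure D4:**
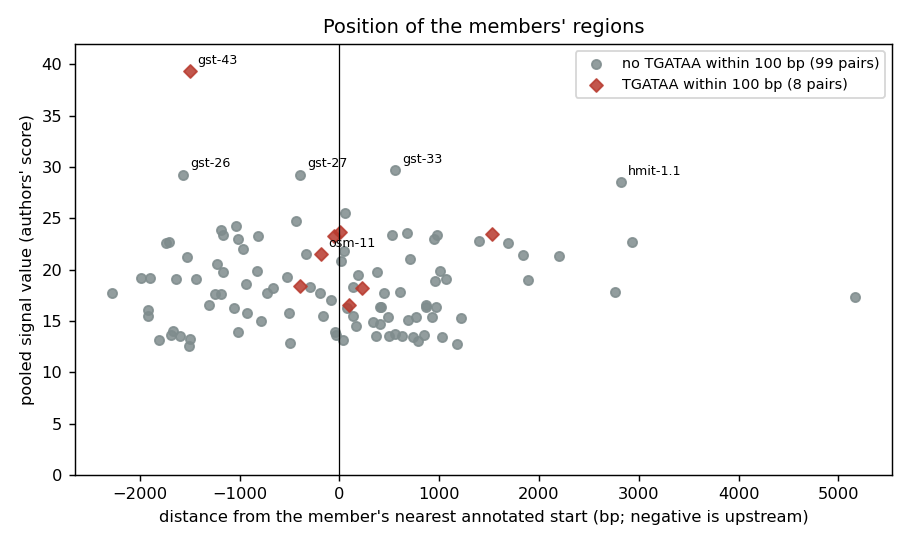
Distance (bp) from the summit to the member's nearest annotated start (x, negative upstream) and pooled signal value (y, the authors' score from 0) for all 107 pairs of a region and a member. Red diamonds are the 8 pairs with TGATAA within 100 bp of the summit, of which only that of gst-43 is among the 1000 highest regions.

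With both strands searched up to 100 bp from the summit, TGATAA was found at 8 of the 91 member regions (8.79%, interval 4.52 to 16.4%), and at 16.3% of the 25783 regions in all gene windows. The interval includes the share over all gene windows, so the members' regions were not distinguished from the rest. The gap was not smaller with 2000 bp upstream alone, where the share was 8.89% against 16.9%. It was smaller under some other choices. The share was 15.2% against 17.2% in the promoter window, which runs from 1000 bp upstream to 200 bp downstream of a start. Among the 15000 highest regions it was 14.3% (8 of 56) against 16.1%, so all 8 lay in that part of the list. In the replicates' own lists it was 12.6% against 16.5% for replicate 1 and 13.8% against 17.7% for replicate 2. The 8 were those already described at gst-43, gst-42, gst-25, gsto-3, ctl-2 and osm-8 and the pair at osm-11. Regions at the genes grouped as osmotic response, ttr-33 included, had it in 3 of 17 cases (17.6%, interval 6.19 to 41.0%). Those at the glutathione transferase and omega-class genes had it in 4 of 52 (7.69%, interval 3.03 to 18.2%). The wider form NGATAN, with A or T for the first N and A or G for the last, includes TGATAA and was found at 26 of 91 regions (28.6%, interval 20.3 to 38.6%), against 33.8%. A SKN-1 site, chosen after the values were seen, was NNTNTCAT with A or T for each of the leading N and A or G for the last. It was found at 12 of 91 regions (13.2%, interval 7.71 to 21.6%), against 8.61%. Of its 8 spellings 2 contain TGATAA on the other strand, and sites that share no base with TGATAA were at 9 of 91 (9.89%, interval 5.29 to 17.7%), against 5.98%. These are matches of letters, not measured binding of either factor.

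Related genes outside the members were taken from a pair of lists. Of 24 genes of glutathione and redox metabolism, such as the glutathione peroxidases, peroxiredoxins and glutaredoxins, 16 had a pooled region, 0 had one among the 1000 highest and 0 had a replicated one, where the shares over all genes were 74.2%, 5.0% and 2.76%. The median of their highest pooled values was 15.3 (n = 16). The other list held 21 genes of stress and osmotic signalling, with some collagen, trehalose synthesis and peptide genes among them. Of these 21 genes, 19 had a region, 1 had one among the 1000 highest and 0 had a replicated one. The median was 18.7 (n = 19). These counts were not tested against the shares over all genes. The gene with a region among the 1000 highest was sgk-1, which encodes a kinase of stress and insulin signalling. Its pooled value was 29.5 (rank 733), and its highest values were 11.96 in replicate 1 (rank 7563) and 17.8 in replicate 2 (rank 824).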

How the data were processed

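ChIP-seq of tagged ELT-3 in 2 biological replicates of L2 larvae was analysed from deposited lists of regions in the ce11 build. Per the file listing deposited with the samples, the authors called regions against 1 control alignment, on each replicate alone and on both pooled, and derived the IDR list from these 3 lists. The signal value is the authors' own, deposited without its scale. The authors' q-values were deposited on the −log10 scale and were converted back. What aligner, peak caller and IDR threshold the authors used, and the read depth, is not given in the sources used here.

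Gene models were those of Ensembl release 115 (WBcel235), and motifs and sequences were read from the RefSeq copy of that assembly. Regions were ranked by signal value, and shares have 95% Wilson intervals. No test was made, since there is 1 group and genes are not replicates of a condition. The biological replicates were counted as separate, and the labels do not say how the cultures were kept apart. The members and lists were chosen with earlier results of these data known. Genes named were members among the 1000 highest regions, the 12 highest members, members with a replicated region, members with 0 regions and a fixed set of well studied genes. Others named (gst-2, gst-5, gst-12, gst-14, gst-25, gst-28, gst-34, gst-35, gsto-1, gsto-3, sod-2, sod-4, sod-5, ctl-3 and trxr-1) were chosen after their values were seen. The assignment of summits and motifs was tested on simulated data. Alternatives changed the window, the list, the number of regions, the summit distance, the ranking column and the motif. The ce10 lists were not used, as no reference of that build was at hand. The software was numpy 2.4.6, pandas 2.3.3 and statsmodels 0.14.6 under Python 3.11.15, with matplotlib 3.10.9 for figures.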

Additional observations from a re-analysis of the deposited data

How the results depend on the processing

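Of 43 alternatives over 6 values, 16 left the value within its limits, which were 1.5 times for counts, the interval for the TGATAA share and the SD between replicates for the median and the density. That SD was near 0, so small shifts passed it. Members with a pooled region numbered 29 with a promoter window (1000 bp upstream to 200 bp downstream of a start) and 33 with 2000 bp upstream alone, beside 34.6% and 44.7% of all genes. Members among the highest regions numbered 3 with 1000 bp upstream, 1 with the promoter window and 3 with the upstream part alone. The shares of all genes were 4.07%, 1.33% and 1.92%. There was 1 for the 500 highest and 22 for the 5000 highest, beside 2.59% and 21.8%. Replicate 1's list gave 3 and replicate 2's gave 2, beside 5.18% and 4.97%. Members with a replicated region numbered 1 with the promoter window, 1 for the 1000 highest of each replicate (gst-43) and 0 within 50 bp. The shares of all genes were 0.711%, 0.295% and 1.43%. Under the looser rule of a match in 1 replicate, 12 members had one with replicate 1 and 13 with replicate 2. The shares of all genes under that rule were 20.1% and 18.6%. The median highest signal value was 19.0, 18.3 and 19.2 for those windows, against 18.3, 16.8 and 17.0 for all genes. For the mean over a member's regions it was 18.0 against 16.9. In the replicates' own lists, whose values lie on a lower scale, the direction differed. It was 11.02 against 11.3 in replicate 1 and 11.03 against 10.9 in replicate 2. The TGATAA share was 28.6% for NGATAN and 16.5% within 150 bp, beside 33.8% and 23.7% over all gene windows. Regions per kb were 0.407, 0.362 and 0.352 for those windows, against 0.323, 0.293 and 0.286 for all genes. With either single replicate's list they were 0.367 against 0.315. A narrower rule can only keep or lower a count. The causes of the other changes, such as those of medians, shares and densities, were not tested. No paired analysis was possible because there is 1 group. The pooled list alone showed the higher share of members among its 5000 highest regions, and unknown read depth limits every comparison of signal values.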
